A study of Mesocricetus auratus with 8 samples.

Results

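The unfolded protein response (UPR) and the integrated stress response (ISR) were followed through 37 genes in the transcriptomes of skeletal muscle satellite cells (SCs) of the Syrian hamster, a hibernator. The genes were picked by symbol, with earlier results of these data known but with no rule on the measured values of the genes. The 37 genes cover 6 roles. They are 4 stress sensors and kinases, 4 transcription factors, 6 ISR effectors and feedback genes, and 7 genes of amino acid uptake, amino acid synthesis and folate metabolism. A further 6 are genes of endoplasmic reticulum (ER)-associated degradation, and 10 are genes of the ER folding machinery. Values were listed for 17590 genes, of which 12506 passed the filter on low counts and were tested, and all 37 genes were among those tested.

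The SCs were primary wild-type (WT) cells from the hindlimb muscle of sexually mature male hamsters, enriched by preplating and grown on Matrigel. Every dish had 48 h at 37°C after plating and then 24 h at 37°C in growth medium with 100 mM HEPES, a buffer that holds the pH in the cold. The 4 control libraries were made from cells at that point (0 h of cold exposure), and the 4 cold libraries from cells kept for a further 24 h at 4°C in the same medium. According to their labels, control replicates 1 to 4 had spent 3, 4, 5 and 6 days at 37°C, yet the titles put each of them at culture day 3. Going by the titles and the protocol, the cold cells were also 24 h older than every control at collection, and the temperature and the time in culture cannot be told apart. The labels give no days for the cold cells. With the control labels set against the protocol time of the cold cells, control replicate 2 had their age and control replicates 3 and 4 were older. The study calls the 4 libraries of a group biological replicates, and the sources used here do not say whether these were separate animals or separate cultures, so the p-values measure the spread between these libraries. No library from cells treated with an inducer of ER stress was analysed here.

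The libraries held between 16530747 and 18533801 expected counts each. Along the first principal component (54.5% of the variance), replicates 1 and 2 of either group stood apart from the others, and the second (17.9%) separated cold from control. Levels are given in TPM, a unit that corrects for transcript length and scales each library to the same total. The satellite cell marker Pax7 was at 10.8 to 16.1 TPM and the myoblast factor Myod1 at 424 to 693 TPM over the 8 libraries. The summed TPM of 8 myogenic markers lay between 2250.0 and 3186 in control and between 1982 and 2620.0 in cold libraries. In the fit with a replicate block described below, 4 of the 8 were called lower, against 4.07% of all genes tested. Without the block, 0 of the 8 were called. The summed TPM of 7 fibroblast markers lay between 1217 and 1739 in control and between 1201 and 1687 in cold libraries, that of 6 endothelial markers was at most 4.22 in any library, and that of 5 immune markers lay between 26.0 and 54.3 in control and between 26.5 and 55.7 in cold libraries. Nearly all of the immune sum was Cd68 (23.3 to 52.0 TPM), with Csf1r at 2.31 to 4.55 TPM and Ptprc, Adgre1 and Itgam at or near 0. The summed TPM of 6 sarcomere genes ranged from 1015 to 2102 in control and from 330 to 582 in cold libraries, and the part of these differences in the values below was not tested.

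The UPR and the ISR let a cell adjust protein synthesis and folding to stress. Misfolded proteins in the ER activate sensors in its membrane. ATF6 is cut to release a transcription factor, IRE1 (encoded by Ern1) splices the Xbp1 mRNA, and PERK (encoded by Eif2ak3) phosphorylates the translation factor eIF2α. GCN2 (encoded by Eif2ak4), which senses uncharged tRNA, phosphorylates the same factor. Phosphorylated eIF2α slows general translation but favours that of ATF4, which then induces genes of amino acid supply, stress effectors and, under lasting stress, the death-associated factor CHOP (encoded by Ddit3). In muscle, the PERK and ATF4 arms are known to act in satellite cell quiescence and in atrophy. Several of these steps act on splicing, cleavage, phosphorylation or translation, which values per gene do not record.

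None of the 37 genes was called different between cold and control SCs at an adjusted p under 0.05. The test was edgeR's quasi-likelihood test with Benjamini-Hochberg adjustment over all 12506 genes, and 0.072% of all genes tested were called in it, 9 genes in all, each lower in the cold. The smallest adjusted p of the 37 genes was 0.962, and 0 of them had an unadjusted p under 0.05, against 6.7% of all genes tested. Same-numbered control and cold libraries deviated together from their group means, with correlations of 0.609 to 0.659 across genes. Libraries of different numbers within replicates 1 and 2 or 3 and 4 did so too (0.432 to 0.591). These correlations therefore do not single out the pairing by number. The same test was also run with the replicate number as a block. There, 5.33% of all genes were called, 4.07% lower and 1.26% higher in the cold, and again 0 of the 37 genes. In the block fit, 5 of the 37 genes had an unadjusted p under 0.05 (Ppp1r15a, Xbp1, Psat1, Ddit4 and Ppp1r15b), against 18.2% of all genes tested, and the smallest adjusted p was 0.0995 (Ppp1r15a). With an added threshold of 1 on the size of the log2 fold change, 0.04% of all genes were called without the block and 0.848% with it, and 0 of the 37. DESeq2 called 0 of the 37 genes both without and with the block.

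The differences were small as well as uncalled. The median log2 fold change of the 37 genes, cold against control, was -0.011 without the block and -0.012 with it, beside 0.0071 and 0.0075 over all genes tested. In both fits 20 genes had a negative and 17 a positive value. The median size of the log2 fold change, regardless of sign, was 0.035 among the 37 genes and 0.069 among all genes tested. Each 95% interval is for 1 gene, is not adjusted for the number of genes, and is for a difference taken as shared by all replicates. A single replicate can lie outside it. The TPM of Ddit4 in cold replicate 1 was 0.60 times that in control replicate 1, outside its block-fit interval of 0.70 to 0.95 times. Without the block, the interval of 24 genes lay within a 1.25-fold difference in either direction, that of 35 genes within 1.5-fold and that of all 37 within 2-fold. With the block, 35 genes lay within 1.25-fold and all 37 within 1.5-fold. The standard error of the log2 fold change had a median of 0.083 among the 37 genes without the block and 0.043 with it. Among all genes tested it was 0.096 and 0.062, so the smaller differences of the 37 genes went with smaller standard errors. The smallest log2 difference called among all genes in the block fit was 0.11 in size. That is not a detection limit for the 37 genes, since larger differences, such as that of Ddit4 (-0.30), were not called in that fit.

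**Figure D1:**
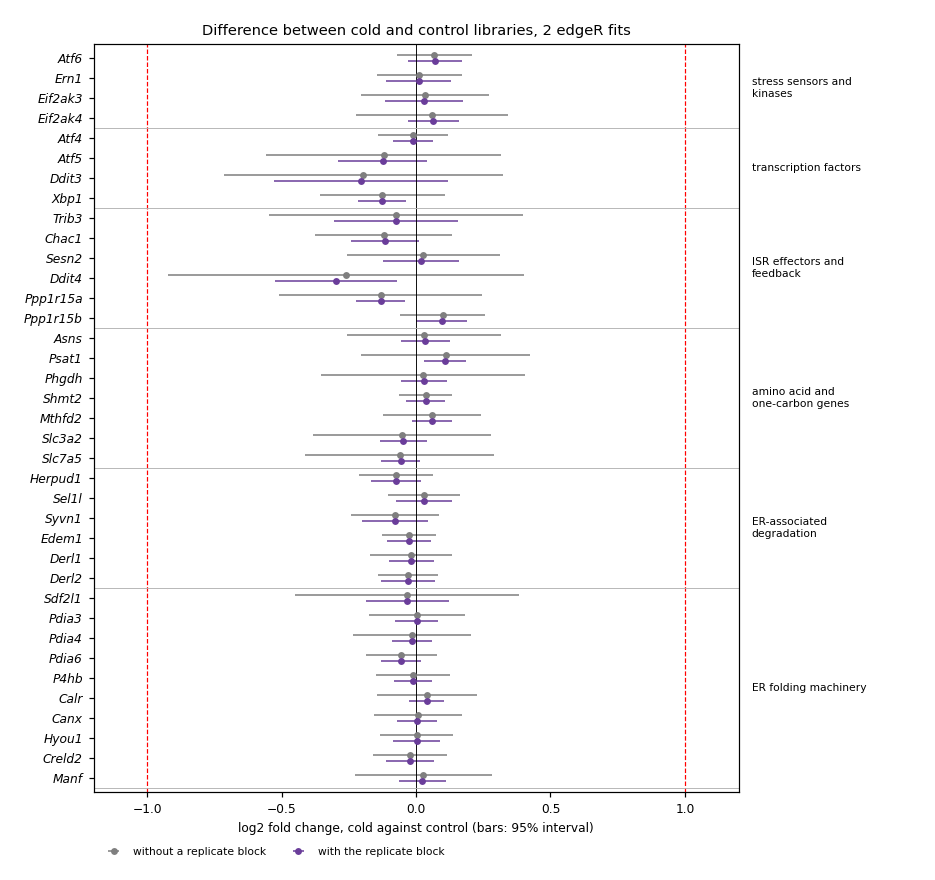
The log2 fold change of each of the 37 genes, cold against control, with its 95% interval, from edgeR without (grey) and with (purple) the replicate number as a block. Dashed lines mark a log2 fold change of 1 in either direction, which no interval reaches; the lowest bound, -0.92, belongs to Ddit4.

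Control and cold values overlapped in every gene. In 0 of the 37 genes did all 4 control TPM values lie above or below all 4 cold values, which was the case in 4.68% of all genes tested. The difference between the mean TPM of the groups was smaller than the control standard deviation in 35 of the 37 genes, the exceptions being Ppp1r15b and Sel1l. Between libraries that share a replicate number, here called pairs, 1 gene had the lower value in the cold library of each of the 4 pairs (Ppp1r15a; 10.5% of all genes tested), and 2 genes had the higher value there each time (Psat1 and Mthfd2; 12.8% of all genes). On CPM scaled by TMM factors in place of TPM, 3 genes were lower in every pair (Xbp1, Ppp1r15a and Herpud1; 12.8% of all genes) and 6 were higher (Eif2ak4, Ppp1r15b, Psat1, Shmt2, Mthfd2 and Calr; 12.9% of all genes).

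The levels of these genes in SCs varied widely. Trib3, Ern1, Ddit3 and Eif2ak3 lay at percentiles 23.5, 32.9, 34.4 and 35.7 of the mean TPM of all genes tested. Their mean TPM ran from 4.37 (Trib3) to 1457 (Calr), and 17 of the 37 had a mean TPM over 100, beside 12.3% of all genes tested. The lowest expected count in any library was 33, for Ddit3. Their summed level was 6720 ± 290 TPM (SD, n = 4) in control and 6824 ± 489 TPM (SD, n = 4) in cold libraries. Summed per library, it was 6830, 6915, 6288 and 6846 TPM in control replicates 1 to 4 and 7185, 7293, 6309 and 6508 TPM in cold replicates 1 to 4. The highest sums were those of cold replicates 1 and 2 and the lowest was that of control replicate 3, so the groups overlapped.

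**Figure D2:**
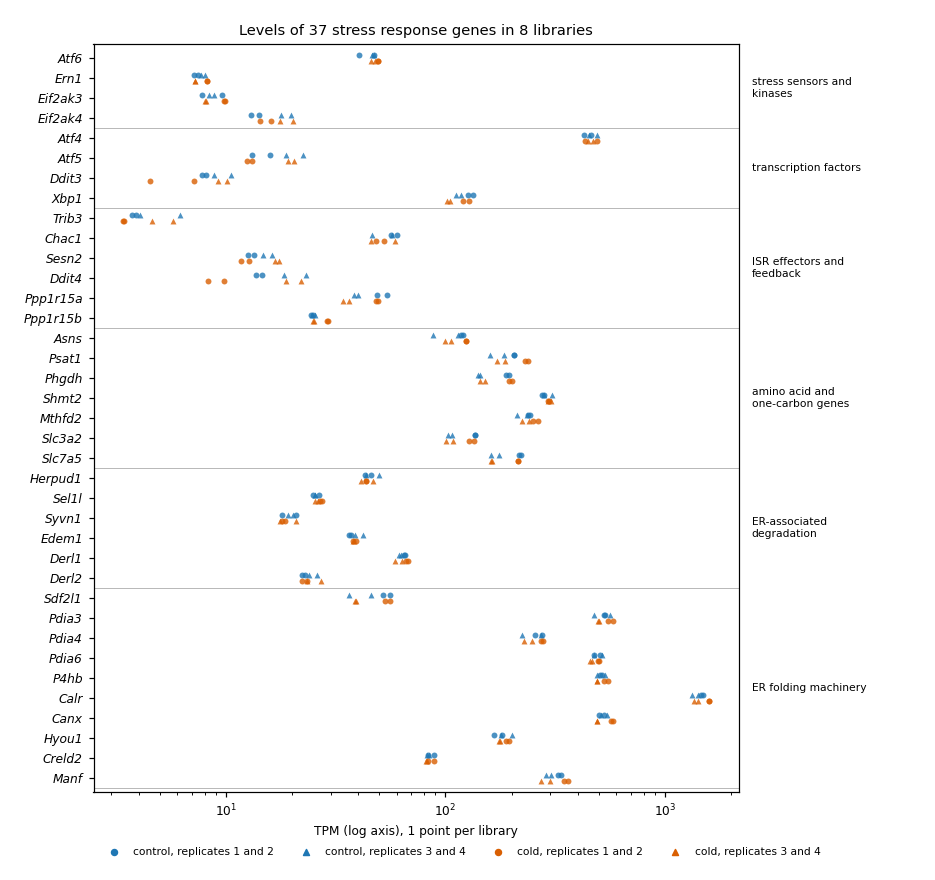
TPM of the 37 genes on a log axis, 1 point per library, with control in blue and cold in orange, circles for replicates 1 and 2 and triangles for replicates 3 and 4. Levels span from about 4 TPM (Trib3) to 1457 TPM (Calr), and the ranges of blue and orange points overlap in every row.

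The 4 sensors and kinases had positive log2 fold changes, between 0.012 and 0.068 without the block, and none was called. On replicates 3 and 4 alone the values of Ern1 and Eif2ak3 were negative (-0.10 and -0.078), and Ern1, Eif2ak3 and Eif2ak4 changed sign with some libraries or pairs left out. In bulk RNA, fewer cells of a type and less RNA per cell cannot be told apart, here or in the values that follow. Atf6, the ER membrane sensor that becomes a transcription factor, had the highest level of the 4. It also had the largest difference of the 4 in both edgeR fits on all libraries, though not on replicates 1 and 2 or 3 and 4 alone. Its TPM was 40.4, 47.3, 46.2 and 47.2 in control replicates 1 to 4 and 49.5, 49.1, 45.7 and 47.7 in cold replicates 1 to 4. Control replicate 1 was the lowest of the 8 libraries and the other control values lay among the cold ones. The log2 fold change of Atf6 was 0.068 (SE 0.061, 95% interval -0.070 to 0.21, edgeR adjusted p 0.999), and 0.069 with the block (adjusted p 0.493). With 1 library or pair left out it lay between 0.0069 and 0.10.

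Ern1, which encodes the Xbp1-splicing sensor, was at 7.57 ± 0.374 TPM (SD, n = 4) in control and 7.69 ± 0.569 TPM (SD, n = 4) in cold SCs. Eif2ak3, which encodes PERK, was at 8.65 ± 0.775 and 8.96 ± 1.00 TPM (SD, n = 4 each). Both sensors were thus near 8 TPM in either group. Eif2ak4, which encodes the amino acid sensor GCN2, was at 13.0, 14.1, 19.8 and 17.8 TPM in control replicates 1 to 4 and at 14.4, 16.0, 20.1 and 17.6 TPM in the cold ones. Replicates 3 and 4 were higher than replicates 1 and 2 in both groups.

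The 4 transcription factors had negative log2 fold changes in both fits, and none was called. The sign turned for Atf4 on log2(TPM + 0.1) (0.0032) and on replicates 1 and 2 alone (0.0037), for Ddit3 on replicates 3 and 4 alone (0.0028), and for Atf4 and Atf5 with single libraries or pairs left out (up to 0.012 and 0.0073). Atf4, the central factor of the ISR, was the most abundant of them. Its TPM was 429, 459, 451 and 493 in control replicates 1 to 4 and 433, 492, 444 and 468 in cold replicates 1 to 4. The ranges of the groups nearly coincided, with means of 458 ± 26.2 and 459 ± 26.2 TPM (SD, n = 4 each). Fitted log2 fold changes of Atf4 were -0.010 (95% interval -0.14 to 0.12) without the block and -0.011 (95% interval -0.084 to 0.061) with it. The mRNA of Atf4 was more abundant than 97.6% of all genes tested.

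Ddit3, which encodes the death-associated factor CHOP, had the largest difference of this group. Its TPM was 8.11, 7.75, 8.84 and 10.5 in control replicates 1 to 4 and 7.14, 4.53, 9.23 and 10.1 in cold replicates 1 to 4. The low value came from cold replicate 2, cold replicate 1 was also below the control range, and cold replicates 3 and 4 lay inside it. Cold against control, this gave a log2 fold change of -0.20 without the block (SE 0.23, 95% interval -0.72 to 0.32) and -0.21 with it (adjusted p 0.535). With 1 library or pair left out it lay between -0.35 and -0.022, the latter without cold replicate 2. A difference in CHOP mRNA was not detectable at this depth and spread.

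Xbp1, whose mRNA is spliced by IRE1 to give an active transcription factor, was at 133, 126, 112 and 118 TPM in control replicates 1 to 4 and at 120, 128, 105 and 102 TPM in the cold ones. The cold library had the lower value in pairs 1, 3 and 4 but not in pair 2. The fitted log2 fold change was -0.13 in both fits, with a 95% interval of -0.36 to 0.11 without the block and of -0.22 to -0.038 with it, and the block fit gave an adjusted p of 0.102. Leaving out 1 library or pair gave values from -0.20 to -0.071. Spliced and unspliced Xbp1 are counted together in a value per gene. Atf5, an ATF4-related factor that is itself controlled at translation, was at 17.6 ± 4.00 TPM (SD, n = 4) in control and 16.3 ± 4.05 TPM (SD, n = 4) in cold SCs.

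Among the 6 ISR effectors and feedback genes, 4 had negative and 2 had positive log2 fold changes, with the signs of Trib3, Chac1 and Sesn2 changing under other settings, and none was called over the 4 pairs. Ddit4 (also known as REDD1), an inhibitor of mTORC1 signalling, had the log2 fold change of the largest size of all 37 genes. Its TPM was 13.8, 14.6, 18.3 and 23.1 in control replicates 1 to 4 and 8.30, 9.80, 18.7 and 22.0 in cold replicates 1 to 4. Cold replicates 1 and 2 were the lowest libraries, whereas in replicates 3 and 4 the cold values were close to the control ones. In the fits, the log2 fold change was -0.26 (SE 0.29, 95% interval -0.92 to 0.40, adjusted p 0.999) without the block and -0.30 (SE 0.11, 95% interval -0.52 to -0.070, adjusted p 0.135) with it. In the block fit without replicate 4 it was called (-0.41, adjusted p 0.0369), in a fit that called 7.44% of all genes, 4.88% as lower.

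The phosphatase subunits that remove the phosphate from eIF2α and so end the ISR had differences of opposite sign. Ppp1r15a, which encodes the stress-inducible subunit GADD34, was at 54.0, 48.9, 40.0 and 38.4 TPM in control replicates 1 to 4 and at 49.1, 48.2, 36.4 and 34.3 TPM in the cold ones. The cold library was the lower in each of the 4 pairs, and replicates 1 and 2 were above replicates 3 and 4 in both groups. Its log2 fold change was -0.13 (95% interval -0.51 to 0.25) without the block and -0.13 (95% interval -0.22 to -0.040, adjusted p 0.0995) with it. Leaving out 1 library or pair moved it between -0.22 and -0.026, the latter without control replicate 1.

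Ppp1r15b, which encodes the constitutive subunit CReP, was at 24.4, 24.8, 24.5 and 25.6 TPM in control replicates 1 to 4 and at 29.1, 28.7, 24.8 and 25.1 TPM in the cold ones. The control values were the tighter group, and cold replicates 1 and 2 were the highest of the 8 libraries. Its log2 fold change was 0.099 (95% interval -0.061 to 0.26, adjusted p 0.962) without the block and 0.095 (95% interval 0.00091 to 0.19, adjusted p 0.269) with it. The test of the difference between the subunits was not made.

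Chac1, an enzyme that breaks down glutathione and a target of the ATF4 and CHOP axis, had the highest mean level of the effectors. Its TPM was 60.5, 56.6, 46.1 and 57.3 in control replicates 1 to 4 and 48.5, 52.3, 45.9 and 58.8 in cold replicates 1 to 4. The cold value was the lower in 3 of 4 pairs. The pseudokinase gene Trib3, an inhibitor of ATF4, was the lowest of the 37 genes at 4.47 ± 1.16 TPM (SD, n = 4) in control and 4.28 ± 1.12 TPM (SD, n = 4) in cold SCs. Sesn2, which encodes a leucine sensor upstream of mTORC1, was at 14.2 ± 1.62 and 14.7 ± 2.86 TPM (SD, n = 4 each).

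Of the genes of amino acid uptake, amino acid synthesis and folate metabolism, 5 had positive and 2 had negative log2 fold changes, and none was called. The signs of Asns, Phgdh, Slc3a2 and Slc7a5 changed under other settings. Psat1, which catalyses the transamination step of serine synthesis, had the largest difference of this group. Its TPM was 206, 205, 159 and 185 in control replicates 1 to 4 and 238, 229, 172 and 186 in cold replicates 1 to 4. The cold library was the higher in each of the 4 pairs, by a ratio of 1.15 in pair 1 and of 1.01 in pair 4. Its log2 fold change was 0.11 (SE 0.14, 95% interval -0.20 to 0.42) without the block and 0.11 (SE 0.037, 95% interval 0.029 to 0.18, adjusted p 0.112) with it. The value ranged from 0.019, without control replicate 3, to 0.19, without cold replicate 3, when 1 library or pair was left out.

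Shmt2, a mitochondrial enzyme that passes the serine carbon to folate, had the highest mean level of this group. Its TPM was 274, 282, 281 and 306 in control replicates 1 to 4 and 296, 293, 292 and 302 in cold replicates 1 to 4. Control replicate 4 was the highest library and the cold values fell inside the control range. Mthfd2, the mitochondrial folate enzyme downstream of it, was at 232 ± 13.7 TPM (SD, n = 4) in control and 245 ± 17.6 TPM (SD, n = 4) in cold SCs, and was higher in the cold in each of the 4 pairs. Its log2 fold change was 0.059 with the block (adjusted p 0.395).

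Phgdh, which starts serine synthesis, and Asns, the asparagine synthetase, had log2 fold changes of 0.026 and 0.029 without the block. Slc7a5 and Slc3a2, which encode the light and heavy chains of a transporter of large neutral amino acids, had values of -0.062 and -0.053. Each of these 4 genes was higher in replicates 1 and 2 than in replicates 3 and 4 in both groups. Slc7a5, for example, was at 221, 217, 161 and 175 TPM in control replicates 1 to 4 and at 214, 215, 162 and 162 TPM in the cold ones.

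ER-associated degradation, which draws misfolded proteins out of the ER to the proteasome, had 5 genes with negative and 1 gene with positive log2 fold changes, and none was called. Among the sign changes under other settings, Derl1 and Derl2 were positive (0.0035 and 0.020) on log2(TPM + 0.1), and Edem1 was positive (0.0028) on replicates 1 and 2 alone. Syvn1, which encodes the ubiquitin ligase HRD1 of this route, had the largest difference of them. Its TPM was 20.8, 18.1, 20.3 and 19.2 in control replicates 1 to 4 and 18.0, 18.7, 20.9 and 17.6 in cold replicates 1 to 4. The cold library was the lower in pairs 1 and 4 and the higher in pairs 2 and 3. Cold against control, this gave a log2 fold change of -0.078 without the block (95% interval -0.24 to 0.084) and -0.079 with it (95% interval -0.20 to 0.043). It lay between -0.13 and -0.022 with 1 library or pair left out.

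Derl1, a derlin of the channel through which proteins leave the ER, had the highest mean level of the degradation genes. Its TPM was 65.1, 65.5, 61.7 and 62.7 in control replicates 1 to 4 and 65.9, 67.8, 63.2 and 59.0 in cold replicates 1 to 4. The highest and the lowest library were both cold ones. Herpud1, a scaffold of the HRD1 complex that the UPR induces, was at 45.5 ± 2.92 TPM (SD, n = 4) in control and 43.7 ± 2.29 TPM (SD, n = 4) in cold SCs, with a log2 fold change of -0.074 in both fits. The log2 fold changes of Sel1l, the partner of HRD1, of Edem1, which recognises trimmed glycans, and of Derl2 lay between -0.030 and 0.030 without the block.

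The ER folding machinery had the highest summed level of the 6 groups, 4360 ± 172 TPM in control and 4437 ± 339 TPM in cold SCs (SD, n = 4 each). Its 10 genes had log2 fold changes between -0.055 and 0.040 without the block, and none was called. Calr, the calcium-binding lectin chaperone of the ER lumen, was the most abundant of the 37 genes. Its TPM was 1496, 1464, 1334 and 1418 in control replicates 1 to 4 and 1584, 1592, 1357 and 1413 in cold replicates 1 to 4. Cold replicates 1 and 2 were the highest libraries, and cold replicates 3 and 4 fell inside the control range. The fitted log2 fold change was 0.040 (95% interval -0.15 to 0.23) without the block and 0.039 (95% interval -0.026 to 0.10) with it.

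Pdia6, a protein disulfide isomerase, had the largest difference of the folding genes. Its TPM was 477, 506, 474 and 514 in control replicates 1 to 4 and 500.4, 498, 463 and 457 in cold replicates 1 to 4. Cold replicates 3 and 4 were the lowest libraries and control replicate 4 the highest. Its log2 fold change was -0.055 in both fits, with an adjusted p of 0.444 with the block. The other isomerases, Pdia3, Pdia4 and P4hb, had log2 fold changes between -0.016 and 0.0034 without the block.

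Canx, the membrane-bound counterpart of Calr, was at 520 ± 19.4 TPM (SD, n = 4) in control and 532 ± 48.8 TPM (SD, n = 4) in cold SCs. Hyou1, a co-chaperone of the main ER chaperone BiP, was at 182 ± 14.0 and 184 ± 9.78 TPM (SD, n = 4 each), and had the smallest log2 fold change in size of the 37 genes, 0.0022. Creld2 and Manf, secretable ER proteins that rise under ER stress in many cells, were at 84.5 ± 2.70 and 312 ± 22.5 TPM in control (SD, n = 4) and at 84.0 ± 3.17 and 320 ± 41.1 TPM in cold SCs (SD, n = 4). Sdf2l1, which assists BiP, was at 47.4 ± 8.61 and 46.7 ± 9.06 TPM (SD, n = 4 each). None of these differences exceeded the spread of the control libraries.

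**Figure D3:**
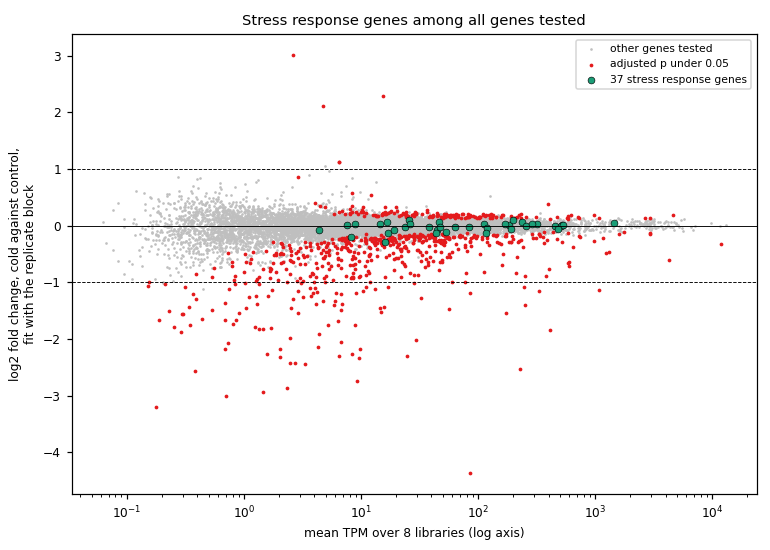
The log2 fold change of every gene tested in the fit with the replicate block against its mean TPM over 8 libraries on a log axis, with genes at an adjusted p under 0.05 in red and the 37 stress response genes in green. The green points lie between -0.30 and 0.11 at levels from about 4 TPM up, and none is among the 667 red ones.

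Of the variance of log2 TPM over the 8 libraries, the replicate number held a median of 79.5% among the 37 genes, beside 62.7% among all genes tested. The condition held a median of 2.77%, beside 7.51% among all genes tested. The replicate number has 3 degrees of freedom and the condition 1, so that the replicate share would be the larger in most genes by noise alone, and the shares are not compared with each other.

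The genes fell on different sides of the split between replicates 1 and 2 and replicates 3 and 4. In 11 genes both replicates 1 and both replicates 2 were above all of replicates 3 and 4: Xbp1, Ppp1r15a, Asns, Psat1, Phgdh, Slc3a2, Slc7a5, Derl1, Sdf2l1, Calr and Manf. That pattern held in 9.09% of all genes tested. The opposite pattern held in 6 genes, Eif2ak4, Atf5, Ddit3, Trib3, Sesn2 and Ddit4, and in 23.5% of all genes. Mean TPM in replicates 1 and 2 was 1.35 times that in replicates 3 and 4 for Phgdh and 1.31 times for Slc7a5, and 0.57 times for Ddit4 and 0.68 times for Atf5. Cell type and differentiation markers moved with the same split. The summed TPM of the 6 sarcomere genes was 2102 and 2021 in control replicates 1 and 2 and 1015 and 1187 in control replicates 3 and 4, and in the cold it was 468 and 582 against 405 and 330. Their ratios of mean TPM in replicates 1 and 2 to that in replicates 3 and 4 were all above 1, from 1.71 (Acta1 and Myh3) through 2.16 (Myl1) to 2.85 (Tnnt1). The summed TPM of 7 fibroblast markers was 1201 to 1293 in replicates 1 and 2 and 1472 to 1739 in replicates 3 and 4, and 5 of the 7 were higher in all libraries of replicates 3 and 4. The ratio of mean TPM in replicates 1 and 2 to that in replicates 3 and 4 ran from 0.55 (Lum) to 1.18 (Col1a2) over the 7 fibroblast markers, with Col1a1 at 1.03, and was 0.55 for Cd68. The 8 myogenic markers went in both directions, from 0.57 (Myf5), 0.76 (Vcam1) and 0.85 (Pax7) to 2.10 (Myog, a marker of differentiating myoblasts), and 2 of them were higher in all libraries of replicates 1 and 2 and 2 in all of replicates 3 and 4. The part of these markers in the split of the stress response genes was not tested. The replicate numbers follow the order of the days at 37°C given in the control labels, and whether those days bear on the split was not tested.

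**Figure D4:**
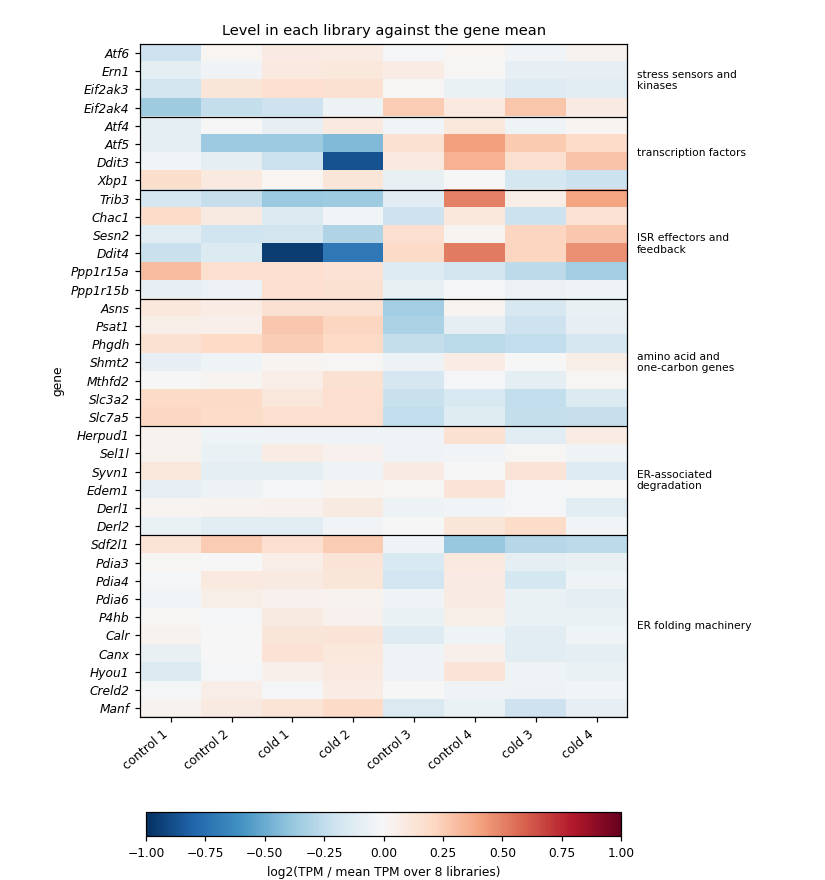
Level of each gene in each library as log2 of its TPM over its mean TPM in 8 libraries (red higher, blue lower), with replicates 1 and 2 of both groups on the left and replicates 3 and 4 on the right. Colours change across the middle in many rows: Asns, Psat1, Phgdh, Slc3a2 and Slc7a5 are higher on the left, and Atf5 and Ddit4 on the right.

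The pairs differed in how these genes moved. In pair 1, 23 of the 37 genes were at a higher TPM in the cold library, in pair 2, 26, in pair 3, 19, and in pair 4, 9. Over all genes tested the share higher in the cold was 61.6% in pair 1, 60.8% in pair 2, 53.8% in pair 3 and 40.1% in pair 4. The median log2 ratio of the 37 genes was 0.050 in pair 1 and -0.073 in pair 4, beside 0.056 and -0.037 over all genes.

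Fits on replicates 1 and 2 alone and on replicates 3 and 4 alone gave different counts. On replicates 1 and 2, 3 of the 37 genes were called, where 11.6% of all genes tested were called, 6.85% lower and 4.73% higher: Ddit4 (log2 fold change -0.71, adjusted p 0.000472), Chac1 (-0.27, adjusted p 0.0071) and Ppp1r15b (0.17, adjusted p 0.0298). On replicates 3 and 4, 0 of the 37 genes and 0.397% of all genes were called, and the values of the same genes were -0.011, 0.032 and 0.0093. The difference between these fits was not tested, and each rests on 2 libraries a group.

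**Figure D5:**
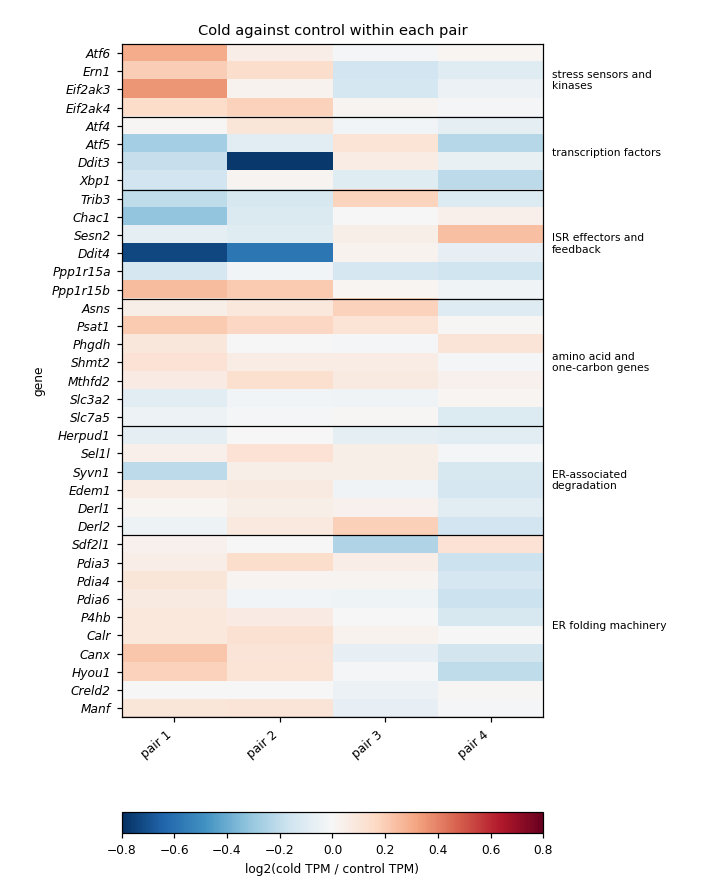
log2 of cold TPM over control TPM in each pair of libraries that share a number (red higher in the cold, blue lower). The darkest cells are Ddit4 in pairs 1 and 2 and Ddit3 in pair 2 (-0.77), while Ppp1r15a is blue and Psat1 and Mthfd2 are red in every pair.

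Few genes of the wider pathway were called. Of 118 further genes of the same 6 roles, 113 were tested and 1 was under the filter on low counts. The other 4 had no values listed under the symbol used. None of the 113 was called without the block, where 1 had an unadjusted p under 0.05 (Mthfd1l, named after its value was seen). With the block, 14 of the 113 had an unadjusted p under 0.05, against 18.2% of all genes tested. At an adjusted p under 0.05, 0 were lower and 1 was higher, against 4.07% lower and 1.26% higher among all genes. The called gene was Creb3l1, an ER membrane factor related to ATF6 that acts on secretory and matrix genes. Its TPM was 147, 142, 102 and 103 in control replicates 1 to 4 and 178, 169, 109 and 116 in cold replicates 1 to 4. The cold library was the higher in each pair, and replicates 1 and 2 were above replicates 3 and 4 in both groups, whose ranges overlapped. Its log2 fold change was 0.18 (SE 0.039, edgeR adjusted p 0.00631) with the block, and 0.19 (95% interval -0.28 to 0.66) without it, and the call did not hold without replicate 2.

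The usual readouts of ER stress among these further genes were not called in either fit. Hspa5, which encodes BiP, was at 823 ± 63.3 TPM (SD, n = 4) in control and 846 ± 106 TPM (SD, n = 4) in cold SCs, with a log2 fold change of 0.016 with the block (95% interval -0.056 to 0.089). Hsp90b1, its partner chaperone GRP94, was at 814 ± 63.0 and 851 ± 90.3 TPM (SD, n = 4 each). Dnajb9, a BiP co-chaperone and a standard target of spliced XBP1, was at 35.1 ± 3.35 and 31.1 ± 5.30 TPM (SD, n = 4 each), with a log2 fold change of -0.10 with the block (adjusted p 0.401). Atf3, an early stress factor downstream of ATF4, was near the lower end of detection at 1.42 ± 0.656 and 1.39 ± 0.123 TPM (SD, n = 4 each).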

How the data were processed

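RNA-seq of 8 libraries of polyadenylated RNA, 4 control and 4 cold, was used. The authors deposited 1 table with expected counts made from their reads and not normalized, TPM values that the authors scaled per library, and a signal of normalized counts, made by the authors and entered in no test. The submitters' processing notes name HISAT and HISAT2. The counting program and the genome build are not given in the sources used here, and no coordinates or sequences were used. Each per-sample column was matched to its library by name, and 0 were left out. All 37 gene identifiers were found in RefSeq under the same symbol.

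The genes and lists were chosen with earlier results of these data known. After rounding, expected counts went into edgeR 4.0.16 under R 4.3.3 (filterByExpr, TMM factors, quasi-likelihood F test, Benjamini-Hochberg adjustment over 12506 genes, two-sided) without and with the replicate number as a block. Genes were called at an adjusted p under 0.05. Standard errors were the log2 fold change over the square root of F, and 95% intervals used the t quantile on the total degrees of freedom of the fit. The scripts were tested on simulated data. Deviations from group means correlated at 0.609 to 0.659 across genes between libraries of the same number in the table's columns, above the limit of 0.1, so the numbers were taken to pair the libraries. Control and cold libraries of different numbers correlated nearly as highly within replicates 1 and 2 or 3 and 4 (0.432 to 0.591) and negatively across them (-0.609 to -0.553). Shares of variance are sums of squares of log2 TPM. Depth was 16530747 to 18533801 expected counts per library, and the reads carry no molecular identifiers. Values per library are given for the genes with the largest difference and the highest mean TPM in each role. The largest difference is by the edgeR fits on all libraries, and on fewer pairs other genes ranked first in some roles. Eif2ak4, Xbp1, Ppp1r15a, Ppp1r15b and Slc7a5 were added after their values were seen. Alternatives were DESeq2 1.42.0 without and with the block, RLE factors, library totals without and with the block, no filter beyond 1 count, a mean of 10 counts in each group, limma 3.58.1 on log2(TPM + 0.1), log2(TPM + 1) or log2(TPM + 0.01), each library or pair left out, and fits on replicates 1 and 2 or 3 and 4. A planned search of promoter motifs was not run.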

Additional observations from a re-analysis of the deposited data

Results flagged for a closer look

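In 2 of 74 groups of 4 libraries, 1 library stood apart from the other 3 by Dixon's criterion, and chance gives about 1 in 20 such groups, or 3.7. The TPM of Atf6 in control replicate 1 was 40.4, below the nearest value of 46.2, with the other control libraries reaching 47.3. The TPM of Trib3 in control replicate 4 was 6.19, above the nearest value of 4.04, with the lowest control library at 3.73. Trib3 was also the highest in replicate 4 among the cold libraries, at 5.74 TPM.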

How the results depend on the processing

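No setting that used all 4 pairs called any of the 37 genes. The median log2 fold change of the 37 genes lay between -0.021 and 0.0053 over 13 alternatives, which include the fits on replicates 1 and 2 and on replicates 3 and 4. With 1 library or pair left out, that median ranged more widely, from -0.048 to 0.016. The count of all genes called, 9 without the replicate block, depended strongly on the setting: it was 667 with the replicate block, 136 with DESeq2, 356 with DESeq2 and the replicate block, 14 with library totals, 673 with library totals and the replicate block, 25 with no filter beyond 1 count, 4 with a mean of 10 counts in each group, 4 with limma at each pseudocount, 1442 on replicates 1 and 2 and 50 on replicates 3 and 4. The count of further pathway genes called was 1 in the replicate block fits of edgeR, DESeq2 and library totals, and 4 on replicates 1 and 2 (Creb3l1, Gpt2, Sec63 and Selenom), where 3 of the 37 genes were called. On TMM-scaled CPM, 3 of the 37 genes were lower and 6 higher in every pair. With single libraries or pairs left out, between 0 and 927 genes were called in all (46 without control replicate 3), between 0 and 3 further pathway genes (Creb3l1, Stc2 and Selenom without replicate 4) and between 0 and 1 of the 37 genes.

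Of 481 log2 fold changes of single genes under these 13 alternatives, 444 kept their sign and side of the threshold, 3 became called (Ddit4, Chac1 and Ppp1r15b on replicates 1 and 2) and 34 changed sign, none of them called. Hyou1 was -0.00071 with RLE factors, -0.00017 with DESeq2 and the replicate block and, with no filter, -0.0041, when Pdia3 was -0.0031. With limma at pseudocounts of 0.1, 1 and 0.01, Atf4 was 0.0032 each time, Derl1 0.0035 each time, Derl2 0.020, 0.019 and 0.020, Pdia4 0.0019 each time and P4hb 0.0053 each time. On replicates 1 and 2, Atf4 was 0.0037, Sesn2 -0.15, Phgdh -0.0097, Edem1 0.0028 and P4hb 0.015. On replicates 3 and 4, Ern1 was -0.10, Eif2ak3 -0.078, Ddit3 0.0028, Trib3 0.025, Chac1 0.032, Slc3a2 0.0076, Pdia3 -0.049, Canx -0.061, Hyou1 -0.091 and Manf -0.031. The causes were not tested.

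With 1 library or 1 pair left out, 83 of 444 values changed sign, in 21 genes. The ranges were -0.080 to 0.090 for Asns, -0.059 to 0.012 for Atf4, -0.24 to 0.0073 for Atf5, -0.0091 to 0.087 for Calr, -0.037 to 0.046 for Canx, -0.064 to 0.0091 for Creld2, -0.061 to 0.015 for Derl1, -0.063 to 0.099 for Eif2ak3, -0.022 to 0.16 for Eif2ak4, -0.044 to 0.059 for Ern1, -0.045 to 0.055 for Hyou1, -0.051 to 0.10 for Manf, -0.048 to 0.016 for P4hb, -0.057 to 0.048 for Pdia3, -0.092 to 0.043 for Pdia4, -0.064 to 0.12 for Phgdh, -0.15 to 0.068 for Sdf2l1, -0.075 to 0.11 for Sesn2, -0.14 to 0.022 for Slc3a2, -0.16 to 0.019 for Slc7a5 and -0.25 to 0.10 for Trib3. The other 16 genes kept their sign, with ranges of -0.21 to -0.038 for Chac1, -0.065 to -0.0029 for Derl2, -0.050 to -0.0030 for Edem1, -0.11 to -0.043 for Herpud1, 0.00077 to 0.11 for Mthfd2, -0.091 to -0.030 for Pdia6, 0.052 to 0.14 for Ppp1r15b, 0.0073 to 0.061 for Sel1l and 0.0092 to 0.050 for Shmt2 (those of Atf6, Ddit3, Xbp1, Ppp1r15a, Psat1 and Syvn1 are given with their values). Ddit4 lay between -0.52 and -0.067, and was called only without replicate 4 in the replicate block fit.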
